A study of Mus musculus with 2 samples.

Results

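The genes described here are those of the mouse mitochondrial genome, taken as all genes that the GENCODE M21 annotation of mm10 places on chromosome M, and matched by Ensembl ID without version to the gene tables of both libraries. There are 37 of them among the 43346 Ensembl genes of the tables, and all 37 were matched in both. They comprise 13 mRNAs, 2 rRNAs and 22 tRNAs. RNA came from skeletal muscle of newborn B6NCrl mice on postnatal day 0, with no treatment and no comparison group. The series holds 1 group of 2 biological replicates, replicate 2 being described as pup 2 and replicate 1 as pup 1 from a single pregnant female. A donor entry common to both is also given, so the spread between them is biological only if these were separate animals. Which muscle was taken is not stated. Each library was made from 10 ng of total RNA longer than 200 nt. Whether cytosolic or mitochondrial rRNA was depleted, how cDNA was primed and whether strand was kept is not stated in the labels or files.

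Mitochondria keep a small circular genome that encodes core subunits of the respiratory chain and of ATP synthase, together with the rRNAs and tRNAs of the organelle's own ribosomes. Each strand is transcribed as a long precursor, and most mRNAs and rRNAs are released when the tRNAs that lie between them are cut out. In muscle, which spends much of its ATP on contraction, these transcripts are among the most abundant in the cell. Stretches of the same sequence have also been copied into nuclear chromosomes during evolution, and short reads cannot always tell such a copy from the mitochondrial gene.

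The annotation leaves almost no room between the genes. From base 1, the first of mt-Tf, to base 15422, the last of mt-Tp, 99.6% of the bases lie in a gene. Of the 36 junctions between neighbours, 9 overlap, 12 abut exactly and 15 leave a gap of at most 32 bases. Of the 15 mRNAs and rRNAs, 14 have a tRNA on at least one side and 8 lie directly between tRNAs, whichever strand the tRNA is on. The tRNAs beside mt-Co1, and mt-Te beside mt-Cytb, are on the opposite strand from the mRNA. The run read from the heavy-strand promoter, which lies before mt-Tf, holds 28 genes: 12 mRNAs, both rRNAs and 14 tRNAs. The run read from the light-strand promoter holds 9 genes: mt-Nd6 and 8 tRNAs.

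Where mRNAs touch without a tRNA, they share bases, and a read from such a stretch can belong to either gene. mt-Atp6 and mt-Co3 share 1 base, at position 8607. The 3 longer overlaps between mRNAs are shown here with the shared bases in capitals and 12 flanking bases on each side, read 5′ to 3′ on the plus strand of mm10 chromosome M from the GENCODE transcripts.
mt-Atp8 and mt-Atp6, chrM:7915-7981: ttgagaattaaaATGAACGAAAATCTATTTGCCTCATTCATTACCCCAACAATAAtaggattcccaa
mt-Nd4l and mt-Nd4, chrM:10155-10185: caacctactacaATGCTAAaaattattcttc
mt-Nd5 and mt-Nd6, chrM:13540-13577: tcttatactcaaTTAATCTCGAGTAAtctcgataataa
The mt-Atp8 and mt-Atp6 overlap is 43 bases, begins with the start codon of mt-Atp6 and ends with the stop codon of mt-Atp8. The mt-Nd4l and mt-Nd4 overlap is 7 bases. The mt-Nd5 and mt-Nd6 overlap is 14 bases and joins the 3′ ends of genes on opposite strands. No stretch of 100 bases, the fragment length that the deposited effective lengths imply, was shared between mitochondrial genes.

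The heavy-strand mRNAs also have a base composition in common, with a G content between 5.88% and 16.1% (median 11.0%, n = 12). The light-strand mRNA mt-Nd6 has the opposite bias, with 28.1% G and 5.97% C. Of the 13 mRNAs, 9 begin with ATG, and mt-Nd1 begins with GTG, mt-Nd2 with ATA, mt-Nd3 with ATT and mt-Nd5 with ATC. A further 3 (mt-Co3, mt-Nd4 and mt-Cytb) end part of the way through a codon, a known feature of mitochondrial genes whose stop codon is completed by the poly(A) tail.

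Copies of 7 of the mRNAs lie next to each other on the minus strand of chromosome 1 (chr1:24611535-24616197), annotated as unprocessed pseudogenes. Of these, 5 are identical to the mitochondrial gene over the whole length of the copy: Gm28437 (mt-Co3), Gm10925 (mt-Atp6), Gm28661 (mt-Co2), Gm10222 (mt-Nd4l) and Gm28439 (mt-Nd4, of which the copy holds the first 876 of 1378 bases). The other two carry the base differences below, in capitals.
mt-Nd3, chrM:9459-9488: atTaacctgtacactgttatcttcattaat
Gm28438, chr1:24613090-24613119, minus strand: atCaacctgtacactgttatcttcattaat
mt-Co1, chrM:6381-6410: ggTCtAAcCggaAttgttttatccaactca
Gm29216, chr1:24616168-24616197, minus strand: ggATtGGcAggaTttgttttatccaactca
Counted from 1 at the first base of the mitochondrial gene, the difference in mt-Nd3 is T3C and those in mt-Co1 are T1056A, C1057T, A1059G, A1060G, C1062A and A1066T. Gm29216 holds the last 492 bases of the 1545 bases of mt-Co1. In 4 of the identical copies, the annotated copy stops just before the end of the mitochondrial gene, and the bases past it are shown in capitals.
mt-Nd4l, chrM:10144-10173: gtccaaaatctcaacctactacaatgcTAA
mt-Co3, chrM:9361-9390: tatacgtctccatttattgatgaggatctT
mt-Atp6, chrM:8578-8607: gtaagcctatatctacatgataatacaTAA
mt-Co2, chrM:7667-7696: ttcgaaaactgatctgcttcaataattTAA
As annotated, only a read that reaches these last bases tells the gene from its copy. For Gm10222 the bases that follow are known, since Gm28439 begins inside its end on the same strand. Gm28439 is identical to the start of mt-Nd4, which includes that TAA, so the TAA is on chromosome 1 too. Such a read tells gene models apart and not where it came from. The bases of chromosome 1 past the other annotated copies were not compared. Counted in windows of 100 bases, Gm28437 shared 684 of the 685 windows of mt-Co3, Gm10925 shared 579 of 582 of mt-Atp6, Gm28661 shared 582 of 585 of mt-Co2, and Gm10222 shared 195 of 198 of mt-Nd4l. Gm28438 shared 243 of 249 windows of mt-Nd3. For the longer genes the overlap was partial, at 777 of 1279 windows of mt-Nd4 and 380 of 1446 windows of mt-Co1. None of the 5 identical copies had a window of its own.

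The mitochondrial genome took 4.58% of the gene counts in pup 2 and 2.96% in pup 1, which is 3.77 ± 1.15% (SD, n = 2). The gene tables summed to 37150684 and 40454600 expected counts in pups 2 and 1, so counting intervals of these shares were narrow, at 4.577 to 4.590% in pup 2 and 2.950 to 2.961% in pup 1 (95% Clopper-Pearson, counting error only). The mRNAs held 3.25% of the gene counts in pup 2 and 2.12% in pup 1, and the rRNAs held 1.33% and 0.833%. The split between the classes hardly differed, with 70.9% of mitochondrial counts in mRNAs in pup 2 and 71.8% in pup 1. The light-strand run, measured through mt-Nd6 alone, held 0.0280% of gene counts in pup 2 and 0.0225% in pup 1. The 7 chromosome 1 copies held a further 1.32% in pup 2 and 0.796% in pup 1, so that mitochondrial genes and copies together came to 5.91% and 3.75%. The share was higher in pup 2 in both measured classes, both coding runs and the copies.

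Levels within a library are given in deposited TPM, which divides counts by an effective length, and also with the counts of the chromosome 1 copy added to its mitochondrial gene on the same scale. The sum takes no side on where such reads came from and counts as an upper value for the mitochondrial transcript. Among the 15 genes that could be measured, deposited TPM spanned 129-fold between the highest and lowest mean, and 23.4-fold with the copies added. The order of the genes was alike in the pups (Spearman's rho 0.961 over 15 genes, or 0.982 with copies, given as a description across genes of the same libraries). In that order, the ranges of neighbours overlapped in 10 of 14 pairs. All 15 genes were higher in pup 2, so these ranges include a shift common to the genes, and an overlap does not mean that the order changed. Within each pup, every gene from rank 9 downward in deposited TPM held the same rank. mt-Co1 moved most, from rank 4 in pup 2 to rank 8 in pup 1. Of the 15 genes, 11 in pup 2 and 10 in pup 1 were among the 100 genes of highest TPM in the library.

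The rRNAs are the RNA cores of the mitochondrial ribosome, mt-Rnr1 (chrM:70-1024) of its small subunit and mt-Rnr2 (chrM:1094-2675) of its large subunit. The large-subunit rRNA mt-Rnr2 had 10144 TPM in pup 2 and 6675 TPM in pup 1. The small-subunit rRNA mt-Rnr1 had 2893 TPM in pup 2 and 1599 TPM in pup 1. mt-Rnr2 was thus 3.51 times mt-Rnr1 in pup 2 and 4.18 times in pup 1, although the ribosome holds them in equal number. The log2 ratio of mt-Rnr2 to mt-Rnr1 was 1.94 ± 0.18 (SD, n = 2). Neither rRNA has a copy among the measured nuclear genes that shared 100 bases with it, and the authors' posterior SD of both counts was 0. The mean of the rRNAs over the mean of the 12 heavy-strand mRNAs had a log2 ratio of 0.24 ± 0.14 in deposited TPM, and of -0.24 ± 0.10 with the copies added, so its direction depended on where the shared reads were placed. Because depletion and priming are not stated, a level of an rRNA against an mRNA may also carry the library method, which was not tested.

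The mRNAs of complex I, the NADH dehydrogenase that feeds electrons into the chain, held the low end of the order. mt-Nd1 (chrM:2751-3707) was the exception at 5875 TPM in pup 2 and 4447 TPM in pup 1. mt-Nd4 (chrM:10167-11544) had 2045 and 1494 TPM in pups 2 and 1, and mt-Nd2 (chrM:3914-4951) had 1523 and 1104 TPM. mt-Nd5 (chrM:11742-13565) was the lowest of the genes whose reads are all their own, at 726 TPM in pup 2 and 618 TPM in pup 1. mt-Nd3 (chrM:9459-9806) had 1125 TPM in pup 2 and 744 TPM in pup 1 as deposited, against 3882 and 2976 TPM with the reads of Gm28438 added. mt-Nd4l (chrM:9877-10173) had 135 TPM in pup 2 and 80.6 TPM in pup 1 as deposited, the lowest of all 15, and 1237 and 803 TPM with the reads of Gm10222 added. The mean over the 7 complex I mRNAs was 1537 ± 312 TPM as deposited and 2024 ± 404 TPM with copies (SD, n = 2).

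Complex III, the cytochrome bc1 complex, has a single mitochondrial subunit, cytochrome b. Its mRNA mt-Cytb (chrM:14145-15288), the last mRNA of the heavy-strand run, had 5886 TPM in pup 2 and 4148 TPM in pup 1. The neighbour upstream on the same strand, mt-Nd5, was 8.11 times lower in pup 2 and 6.71 times lower in pup 1, a difference larger than the spread between the pups. Neither gene shares reads with a copy on chromosome 1.

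The mRNAs of complex IV, the cytochrome c oxidase that reduces oxygen, all share reads with a copy, to different extents. mt-Co1 (chrM:5328-6872), the catalytic subunit, had 6180 TPM in pup 2 and 2557 TPM in pup 1 as deposited, and 8282 and 3912 TPM with Gm29216. mt-Co2 (chrM:7013-7696), which takes the electron from cytochrome c, had 4971 TPM in pup 2 and 3912 TPM in pup 1, and 9368 and 6300.3 TPM with Gm28661. mt-Co3 (chrM:8607-9390), the other core subunit, had 4369 TPM in pup 2 and 3036 TPM in pup 1, and 19459 and 11974 TPM with Gm28437, which moved it from place 8 of 15 to place 1 by mean. With copies, the mean of the 3 mRNAs was 9882 ± 3517 TPM, against 4171 ± 1418 TPM as deposited.

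The mRNAs of complex V, ATP synthase, were the most abundant as deposited. mt-Atp6 (chrM:7927-8607), which forms part of the proton path, had 16059 TPM in pup 2 and 11746 TPM in pup 1. mt-Atp8 (chrM:7766-7969), a small peripheral subunit, had 12803 TPM in pup 2 and 10962 TPM in pup 1. Both are known to be carried on the same mature mRNA. The log2 ratio of mt-Atp8 to mt-Atp6 was -0.21 ± 0.16 in deposited TPM (SD, n = 2), but 0.010 in TPM from posterior means and -0.94 with counts per full length, so how close their levels were depended on the estimate. The ratio rests on only 204 bases of mt-Atp8, of which 43 belong to mt-Atp6 too. The same holds for the other pair on a common mRNA, mt-Nd4l and mt-Nd4, where the answer turned on the copy. The log2 ratio of mt-Nd4l to mt-Nd4 was -4.07 ± 0.20 as deposited, and -0.81 ± 0.12 with the reads of Gm10222 and Gm28439 added. As a share of all mRNA counts with copies, complex IV held 51.2% in pup 2 and 44.4% in pup 1, complex I 19.8% and 22.9%, complex V 18.7% and 21.7%, and complex III 10.2% and 11.0%.

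**Figure D1:**
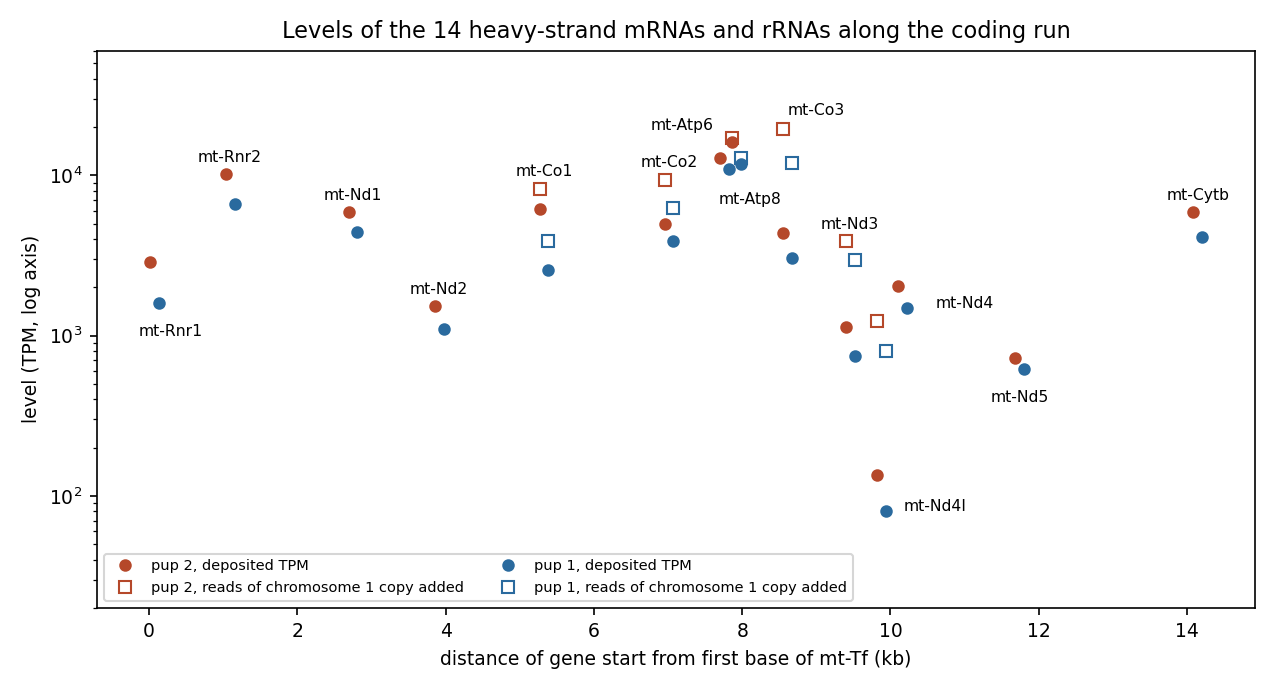
Level in TPM (log axis) of the 14 heavy-strand mRNAs and rRNAs against the distance of the gene start from the first base of mt-Tf, in kb; filled circles are deposited TPM and open squares have the reads of the chromosome 1 copy added, with pup 2 drawn to the left of pup 1. Levels go up and down along the run, with mt-Cytb near its end at 5886 TPM in pup 2 and 4148 TPM in pup 1, and mt-Co3 and mt-Nd4l move most when copies are added.

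Along the heavy-strand run, level and distance from the start were only loosely related. Over the 12 mRNAs, Spearman's rho of deposited TPM with distance was -0.357 in pup 2 and -0.350 in pup 1, and -0.294 and -0.329 with the copies added. These are descriptions across genes that come from the same precursor and the same libraries, with no test. High and low mRNAs came in stretches, and close neighbours could differ. mt-Nd1, 2750 bases from the start, was 3.86 times mt-Nd2, 3913 bases from the start, in pup 2 and 4.03 times in pup 1. The plot of level against distance shows the highest mRNAs in the middle of the run, mt-Nd5 low after it at 11741 bases, and mt-Cytb high again at 14144 bases.

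The only mRNA of the light-strand run, mt-Nd6 (chrM:13552-14070, minus strand), encodes a membrane subunit of complex I. It had 876 TPM in pup 2 and 724 TPM in pup 1, on 10400 and 9091 counts. Against mt-Nd5, which ends in it on the other strand, its log2 ratio was 0.25 ± 0.03 (SD, n = 2). With counts per full length in place of effective length the ratio was 0.025, so the size of the excess depended on the length used. Against mt-Cytb, its neighbour across the tRNA mt-Te, mt-Nd6 was lower by a log2 ratio of -2.63 ± 0.16. Since strand is not stated, reads of mt-Nd6 and of RNA from the opposite strand cannot be told apart here, and its level is an upper value for the mRNA.

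All 22 tRNAs were listed at 0 counts and 0 TPM in both pups, and this says nothing of their abundance. Their models are 59 to 75 bases long (median 68.5), and effective length in these tables is the length less 99 for every one of the 15 measured mitochondrial genes. A model shorter than 100 bases therefore has an effective length of 0 and can receive no read. The libraries were also restricted to RNA over 200 nt, which leaves mature tRNAs out. The same held for 2218 Ensembl genes of the tables. The shortest and the longest of the tRNAs, both of the heavy-strand run, show the size of these models.
mt-Ts2 (serine), chrM:11613-11671: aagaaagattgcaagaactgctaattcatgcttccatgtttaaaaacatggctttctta
mt-Tl1 (leucine), chrM:2676-2750: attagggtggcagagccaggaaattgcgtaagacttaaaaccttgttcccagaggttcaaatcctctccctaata
mt-Tl1 lies between mt-Rnr2 and mt-Nd1 with no base to spare on either side. Those neighbours stood at a ratio of mt-Rnr2 to mt-Nd1 of 1.73 in pup 2 and 1.501 in pup 1. The other 20 are mt-Tf, mt-Tv, mt-Ti, mt-Tm, mt-Tw, mt-Td, mt-Tk, mt-Tg, mt-Tr, mt-Th, mt-Tl2 and mt-Tt of the heavy-strand run, and mt-Tq, mt-Ta, mt-Tn, mt-Tc, mt-Ty, mt-Ts1, mt-Te and mt-Tp of the light-strand run. Any tRNA still joined to a longer precursor would have its own bases outside these gene models as well.

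Of all counts on mitochondrial genes and copies together, the copies held 22.4% in pup 2 and 21.2% in pup 1 (21.8 ± 0.86%, SD, n = 2). The share differed widely from gene to gene. Gm28437 received 292325 counts in pup 2 and 183056 in pup 1, against 84635 and 62180 counts on mt-Co3, which is 77.5% and 74.6% of the pair. Gm10222 received 89.1% of its pair with mt-Nd4l in pup 2 and 90.0% in pup 1. Gm28438 received 71.0% of its pair with mt-Nd3 in pup 2 and 75.01% in pup 1. Gm28661 received 46.9% of its pair with mt-Co2 in pup 2 and 37.9% in pup 1, and Gm10925 received 5.57% and 7.93% of its pair with mt-Atp6. Gm29216 received 25.4% of its pair with mt-Co1 in pup 2 and 34.6% in pup 1. Gm28439, identical to the first 876 bases of mt-Nd4, received 9.78 counts in pup 2 and 0 in pup 1, where mt-Nd4 had 73971 and 57116 counts. A count of 0 allows up to 3 counts in a library. Among the 5 copies identical to their gene, the share thus ran between 0 and 90.0% in pup 1 and between 0.0132% and 89.1% in pup 2.

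**Figure D2:**
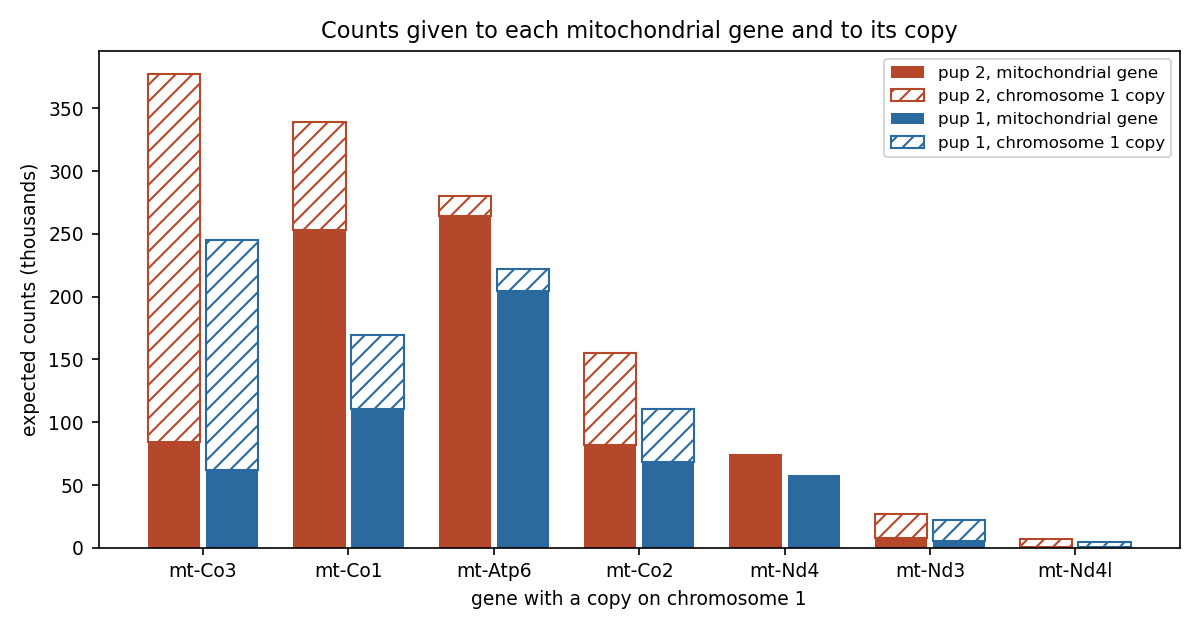
Expected counts given to each of the 7 mitochondrial genes with a chromosome 1 copy (filled part of each bar) and to the copy (hatched part), with pup 2 to the left of pup 1. The copy holds most of the bar for mt-Co3, mt-Nd3 and mt-Nd4l, little of it for mt-Atp6 and almost none for mt-Nd4.

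The authors' own uncertainty differed between the genes with a copy. The deposited posterior SD of the count was 0 in both pups for mt-Rnr1, mt-Rnr2, mt-Nd1, mt-Atp8, mt-Nd6 and mt-Cytb, which share no window with a copy. For mt-Co3 it was 91211 counts in pup 2 and 59132 in pup 1, or 61.0% and 60.7% of the posterior mean. For mt-Co2 it was 25.3% in pup 2 and 23.6% in pup 1, and for mt-Atp6 13.2% and 14.7%. For mt-Co1, where most windows belong to the mitochondrial gene alone, it was 0.101% in pup 2 and 0.147% in pup 1, and for mt-Nd4, which shares more than that, it was 5.85 and 3.08 counts. The deposited interval of mt-Co3 ran from 2862 to 15845 TPM in pup 2 and from 1875 to 9835 TPM in pup 1, a span of 5.54 and 5.25 times. In the 10 genes other than mt-Co3, mt-Co2, mt-Atp6, mt-Nd3 and mt-Nd4l, the upper bound was at most 1.04 times the lower. In those same 10 genes the interval of pup 2 lay wholly above that of pup 1, and in the other 5 the intervals of the pups overlapped. How many of all genes had separate intervals was not counted, and intervals this narrow separate at small shifts. The count is therefore no result particular to the mitochondrial genes. The interval belongs to the posterior mean TPM, and the TPM given above lay outside it in 11 of 15 genes in pup 2 and 9 of 15 in pup 1.

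**Figure D3:**
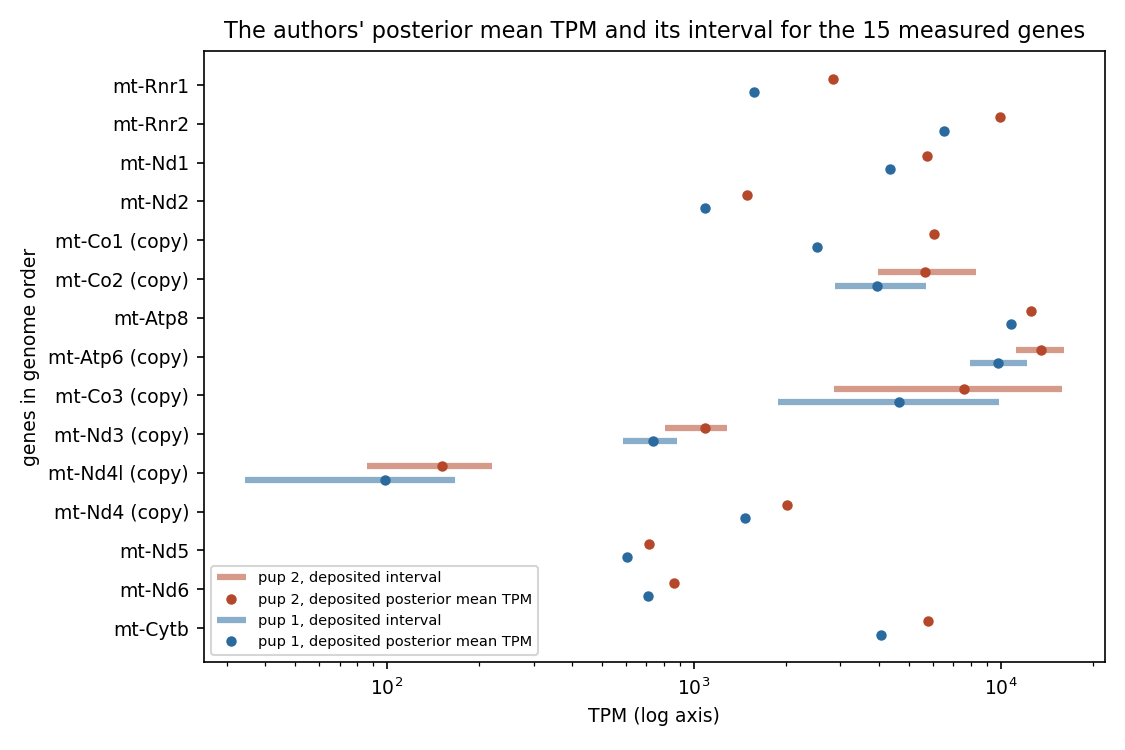
The authors' posterior mean TPM (points, log axis) and the interval deposited with it (bars) for the 15 measured genes, with pup 2 above pup 1; genes with a chromosome 1 copy are marked. Bars are wide for mt-Co3, mt-Co2, mt-Atp6, mt-Nd3 and mt-Nd4l, and shorter than the points for the other 10.

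Mitochondrial transcripts stood higher in pup 2. On counts scaled by TMM, a normalization that sets most genes equal between the libraries, all 15 measured genes had a higher value in pup 2. The log2 ratio of pup 2 over pup 1 had a median of 0.60 over the 13 mRNAs (range 0.37 to 1.42), where the median of all 12429 genes with at least 100 mean counts was 0.00012. There were 10 of the 15 genes past 1.5-fold in this direction, which 1.2% of all such genes passed, and 0 past it in the other direction, which 4.88% passed. With copies added the first count was 9 of 15, where 1.16% of all genes passed. The count depended on the scaling. mt-Nd2, mt-Nd4 and mt-Atp6 lay just past the limit, and in TPM mt-Cytb and mt-Co3 fell below it as well, at log2 ratios of 0.50 and 0.53. The count was 5 of 15 in TPM, where 0.668% of all genes passed, 5 with total counts (0.757%), 6 with totals less mitochondrial genes and copies (0.87%) and 3 with spike-in counts (0.363%). Past 2-fold there were 2 of 15 in this direction, mt-Co1 and, on the limit itself, mt-Rnr1, where the percentage for all genes was 0.161%, and 0 of 15 in the other, where it was 2.23%. Each pup gave 1 library, so there is no test of this difference and its intervals cover counting error only.

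mt-Co1 stood furthest from the rest, with 252731 counts in pup 2 and 110551 in pup 1, a log2 ratio of 1.42 (95% counting interval 1.41 to 1.43). With its copy added the log2 ratio was 1.23, again the highest of the 15. The counts on Gm29216 alone, which holds the last 492 bases of mt-Co1, had a log2 ratio of 0.78 (0.76 to 0.79). How far mt-Co1 stood out thus depended on whether the counts of the copy were added. Whether the ratio differs along the gene was not tested. mt-Rnr1 followed at 1.00 (0.98 to 1.02) on 70023 counts in pup 2 and 40913 in pup 1, and mt-Rnr2 stood at 0.75 (0.74 to 0.76). The lowest log2 ratios were those of mt-Atp8 at 0.37 (0.35 to 0.39), mt-Nd5 at 0.38 (0.35 to 0.40) and mt-Nd6 at 0.42 (0.38 to 0.46). Genes of the heavy-strand run without a copy, such as mt-Rnr1 and mt-Atp8, therefore differed in their ratio by more than counting error, as the plot of ratios by gene shows. For genes with a copy, the counting intervals leave out how shared reads were split. With copies added, the 3 complex IV mRNAs had a median log2 ratio of 0.85 (range 0.72 to 1.23) and the 7 complex I mRNAs one of 0.55 (range 0.38 to 0.77). Among the 12 heavy-strand mRNAs, Spearman's rho of this ratio with distance from the start was -0.0909, again as a description. Over the 15 genes the rho of the ratio with GC content was 0.614, with length 0.246 and with level 0.229.

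**Figure D4:**
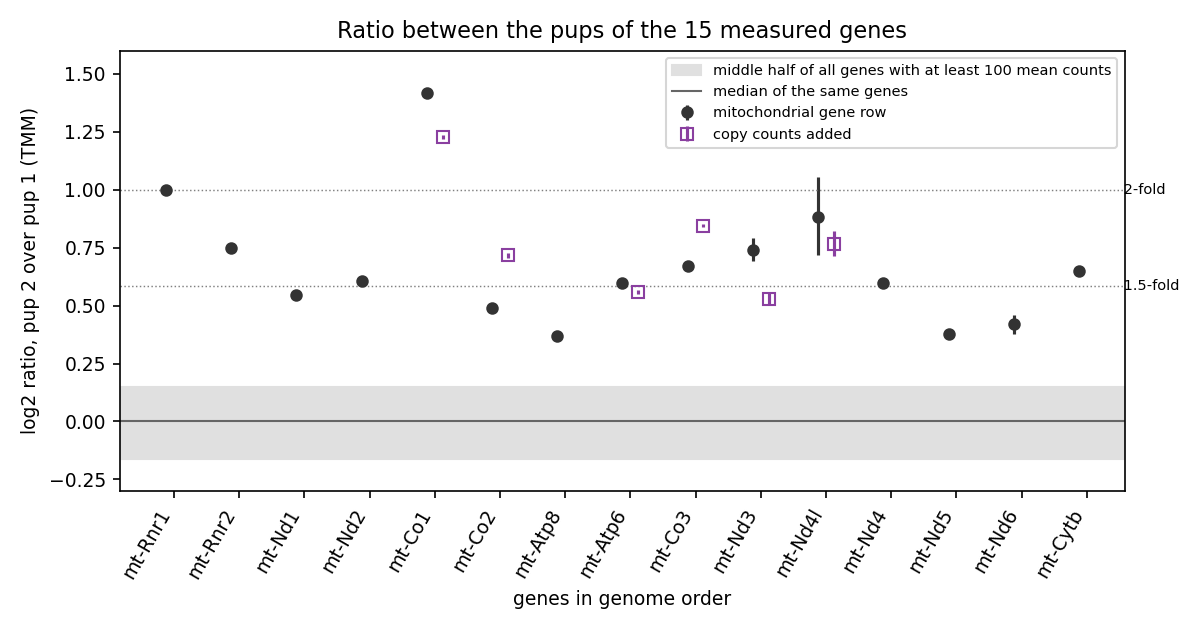
Log2 ratio of pup 2 over pup 1 (TMM-scaled counts) for the 15 measured genes in genome order; circles are the mitochondrial rows, squares have the counts of the chromosome 1 copy added, and vertical lines are 95% counting intervals. All 15 lie above the grey band that holds the middle 50% of all genes with at least 100 mean counts, and mt-Co1 is highest at 1.42.

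Of the 15 genes, 12 had at least 10000 mean counts. The 472 genes of that depth outside the mitochondrial genome and its copies had a median log2 ratio of 0.12 and a range of -5.08 to 0.76. Of these, 34 reached the lowest mitochondrial ratio of 0.37, and 26 were as far from 0 in the other direction. The 8 muscle markers, which include skeletal actin Acta1 and creatine kinase Ckm, had a median log2 ratio of 0.25 (range 0.14 to 0.52), and their summed level was 143518 TPM in pup 2 and 130632 TPM in pup 1, so the label of skeletal muscle holds in both. The pups also differed in other tissues. The 5 epidermal markers summed to 4.19 TPM in pup 2 and 428 TPM in pup 1, the 4 adipocyte markers to 94.9 and 2350.4 TPM, the 4 cartilage markers to 1.01 and 32.4 TPM and the 4 leukocyte markers to 591 and 1076 TPM. Most of the leukocyte sum came from Cma1 and Cpa3, at 315 and 261 TPM in pup 2 and 567 and 485 TPM in pup 1. Of the defining markers, 1 of 5 epidermal and 0 of 4 cartilage genes reached 1 TPM in pup 2, against 5 of 5 and 4 of 4 in pup 1, while all 4 adipocyte and all 4 leukocyte genes reached it in both. The brown fat marker Ucp1 was at 0 counts in pup 2 and 6 in pup 1. The brown fat markers summed to 23.9 and 24.9 TPM, nearly all of it from Cidea. The 4 heart markers summed to 6.68 and 6.77 TPM, and the 5 erythroid markers to 5061 and 6157 TPM. The part of these other tissues in the mitochondrial ratio was not tested. In bulk tissue, fewer cells of a type and less RNA per cell cannot be told apart.

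The other subunits of the same complexes are encoded in the nucleus and imported. Of 45 such genes listed for the core of complex I and for complexes III, IV and V, all 45 were matched and had at least 1 TPM. The median of the 13 mitochondrial mRNAs stood above the median of the 45 nuclear ones. Its log2 ratio to the nuclear median was 1.81 ± 0.48 as deposited and 2.33 ± 0.35 with copies (SD, n = 2). Not every mRNA was above the nuclear median: mt-Nd5 and mt-Nd6 were below it in both pups. mt-Nd4l was below it in both pups as deposited and in pup 1 with copies, and mt-Nd3 in pup 1 as deposited. The nuclear median was 985 TPM in pup 2 and 924 TPM in pup 1. The highest of them were Atp5b, the catalytic beta subunit of ATP synthase, at 4139 TPM in pup 2 and 4286 TPM in pup 1, Atp5g3, a subunit of its membrane ring, at 2825 and 2303 TPM, and Cox6b1 of complex IV at 2130 and 1963 TPM. The lowest was Ndufs1 of complex I at 227 TPM in pup 2 and 208 TPM in pup 1.

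By complex, the log2 ratio of the mitochondrial to the nuclear median, with copies, was 1.85 ± 0.29 for complex I, 2.50 ± 0.30 for complex III, 2.63 ± 0.34 for complex IV and 3.46 ± 0.20 for complex V. With copies, all 13 mitochondrial mRNAs were above every listed nuclear subunit of their own complex in both pups, as the plot by complex shows. As deposited this held for 12 of 13, the exception being mt-Nd4l at 135 TPM in pup 2 and 80.6 TPM in pup 1. The margin was small for mt-Nd5, at 726 TPM in pup 2 and 618 TPM in pup 1, against Ndufs7 at 722 and 594 TPM. For complex I only core subunits were listed. The nuclear medians of complexes IV and V were close, at 1276 and 1224 TPM in pup 2 and 1201 and 1187 TPM in pup 1.

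**Figure D5:**
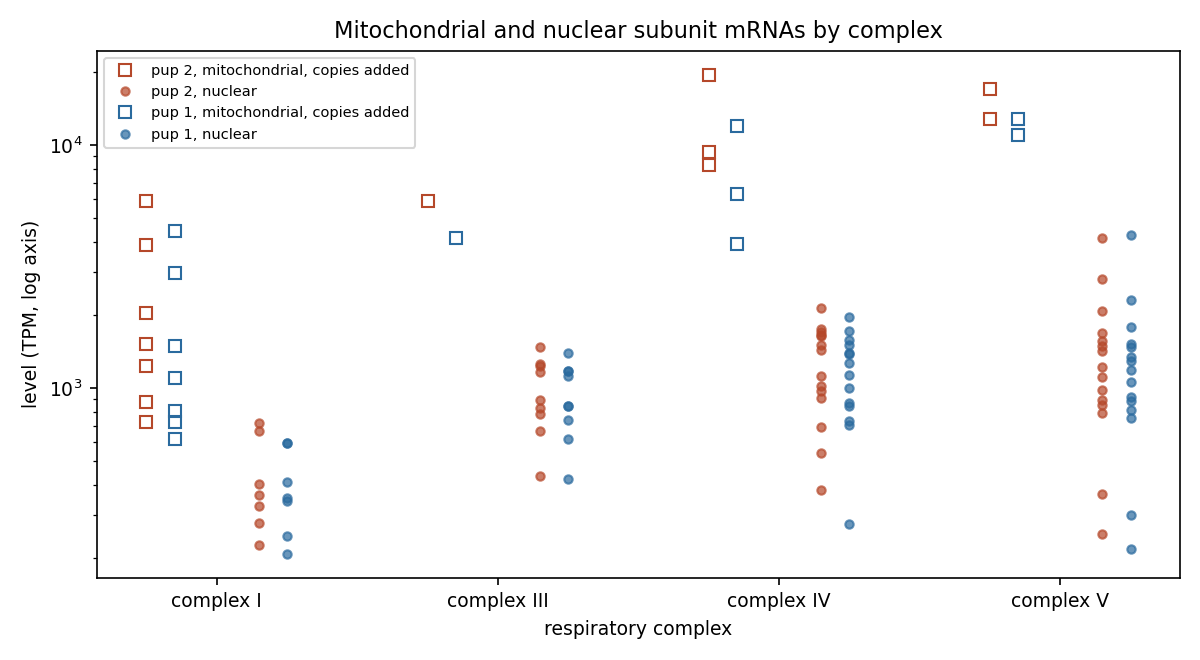
Level in TPM (log axis) of mitochondrial mRNAs (squares, copies added) and of nuclear subunit mRNAs (circles) of complexes I (nuclear core subunits only), III, IV and V, with pup 2 to the left of pup 1. In each complex the squares lie above the circles in both pups, with the widest median gap in complex V.

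The nuclear subunits had smaller ratios between the pups than the mitochondrial mRNAs, a difference that was not tested. Their median log2 ratio of pup 2 over pup 1 was 0.22 (range -0.30 to 0.62, 45 genes), and 1 of 45 passed 1.5-fold in this direction and 0 in the other, beside the 1.2% and 4.88% of all genes. That gene was Cox7a1, the muscle form of a complex IV subunit, at 383 TPM in pup 2 and 276 TPM in pup 1 (log2 ratio 0.62). The next were Atp5g3 at 0.44 and Ndufs7 of complex I at 0.43. Cox6a1, the form of another complex IV subunit that is known from tissues other than adult muscle, had the lowest log2 ratio at -0.30, with 540.0 TPM in pup 2 and 734 TPM in pup 1.

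The nuclear genes that make and handle mitochondrial RNA and DNA were far lower. Of 38 genes for transcription, processing, stability and decay, replication and rRNA modification, 37 had at least 1 TPM, with a median of 14.9 TPM in pup 2 and 15.4 TPM in pup 1. The highest was Slirp, which with Lrpprc stabilises mitochondrial mRNAs, at 221 TPM in pup 2 and 253 TPM in pup 1. Hsd17b10, a subunit of the RNase P that cuts the tRNAs out, had 144 TPM in pup 2 and 163 TPM in pup 1, and Fastk, needed in mouse for mt-Nd6 mRNA, had 122 and 127 TPM. The lowest was Mterf1b at 0.80 TPM in pup 2 and 1.02 TPM in pup 1, a close relative of Mterf1a whose reads may be split between them.

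On TMM-scaled counts, the ratios of these factors between the pups centred near 0. Their median log2 ratio was 0.04 over the 37 genes with at least 100 mean counts, and 0 of 37 passed 1.5-fold in either direction, where 1.2% and 4.88% of all genes passed, so few would be expected at those rates. The highest log2 ratios were 0.41 for Twnk, the DNA helicase of mitochondrial replication, 0.28 for Tfam, the factor that packs the genome and starts its transcription, and 0.28 for Fastkd1. The lowest were -0.49 for Mterf1a, -0.37 for Rexo2, an exonuclease that removes short RNA fragments, and -0.31 for Top1mt, the mitochondrial topoisomerase. Tfam had 55.2 TPM in pup 2 and 53.6 TPM in pup 1, and Twnk had 12.7 and 10.6 TPM. On this scaling, no member of the list was as far apart between the pups as the median mitochondrial mRNA. In TPM that did not hold, where the median mRNA log2 ratio was 0.45. Mterf1a had 1.85 TPM in pup 2 and 3.27 TPM in pup 1, and Rexo2 had 53.0 and 75.5 TPM, both further apart.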

How the data were processed

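Libraries were made from 10 ng of RNA (mirVana extraction, ERCC spike-ins), per the labels' protocols; 1 gene table and 1 transcript table per pup were used. Quantification was on alignments to the transcriptome, mm10 and GENCODE M4, per the files that accompany the tables; aligner and quantifier: not given in the sources used here. The authors deposited expected counts (reads shared between genes are split by a model) with posterior means, and TPM, per the file headers. The deposited posterior SD and TPM interval bounds were treated as a score. The percent of TPM by transcript, per the file headers, was 100 for 15 members and 0 for 22.

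GENCODE M21 gave names, positions and sequences, and 42462 of 43346 gene IDs matched. Expected counts were rounded, and TMM factors came from edgeR 4.0.16 under R 4.3.3, among 17004 genes with at least 10 mean counts, with a prior count of 2. The step was tested on simulated data. An alternative scaling used the size factors of DESeq2 1.42.0. The fold rule asked for 100 mean counts. With 1 library per pup no p-value was computed, since no degrees of freedom remain. Values are mean ± SD, n = 2. Intervals are 95% Clopper-Pearson, on the share or on the pup 2 part of summed counts. Without molecular identifiers PCR reads are not independent, and both these intervals and the limit of 3 counts for a count of 0 cover counting error only. Shared 100-base windows were counted on both sequences. Gene depth per library was 37150684 and 40454600 counts in pups 2 and 1. Python 3.11.15, pandas 2.3.3, numpy 2.4.6, scipy 1.17.1 and matplotlib 3.10.9 were used. The members and lists were chosen with earlier results of these data known. Named are all 37 genes, their 7 copies, the markers, and of each of the 2 nuclear lists the 3 highest, the lowest and up to 3 genes with the largest ratio each way. Alternatives covered scaling, filters, prior counts, posterior means, lengths, copies and each replicate alone.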

Additional observations from a re-analysis of the deposited data

Results flagged for a closer look

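Genes annotated on chromosome 2 that share sequence with mitochondrial genes, and that are outside the comparisons above, held a few reads. Gm13340, which shares 80 windows of 100 bases with mt-Co1, had 81.7 counts in pup 2 and 33.9 in pup 1. Gm13341, which shares 88 windows with mt-Co2, had 68.1 counts in pup 2 and 45.3 in pup 1. Gm13339, which shares 30 windows with mt-Nd2, had 5.82 counts in pup 2 and 1.6 in pup 1. Gm13340 and Gm13341 stood above the 3 counts that a count of 0 allows in a library, there being no control samples. Gm13339 did so in pup 2 only. No outlier check applies to a group of 2.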

How the results depend on the processing

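No paired analysis was possible because the series has 1 group, with nothing to pair across groups. For 10 results, 60 alternatives were computed, of which 39 moved the value by less than 1 SD (for the median ratio, less than its counting interval), 19 moved it by more and 2 changed its sign. Only 42 of the 60 were other than leaving out a replicate, and all that left out a replicate are among the 39. Adding copies could not move mt-Nd6 to mt-Nd5 or mt-Rnr2 to mt-Rnr1, which have no copy. The 39 are thus no measure of stability. The mitochondrial share was 6.47% as a share of TPM. The median log2 ratio of the mRNAs was 0.50 with total counts, 0.53 with totals less mitochondrial genes and copies, 0.34 with spike-ins (416 and 406 counts only) and 0.45 in TPM. The median of all genes was -0.10, -0.07, -0.26 and -0.15 under these 4. A library factor moves every gene alike, so the distance of the mRNAs from that median says nothing of stability. All 15 genes were higher in pup 2 under each of the 4. With copies added, the log2 ratio of rRNAs to mRNAs was -0.24, of mt-Nd4l to mt-Nd4 -0.81, of mitochondrial to nuclear subunits 2.33, and the rank correlation of level with distance was -0.31. With posterior means, mt-Atp8 to mt-Atp6 was 0.010, mt-Nd4l to mt-Nd4 was -3.81, the rank correlation was -0.31 and the copies' share was 20.6%; in TPM that share was 28.6%. Per full length, mt-Nd6 to mt-Nd5 was 0.025, rRNAs to mRNAs 0.47, mt-Atp8 to mt-Atp6 -0.94, mt-Nd4l to mt-Nd4 -4.55 and the rank correlation -0.34. The rank correlation of level with distance was -0.23 without length division and -0.28 without mt-Nd4l and mt-Atp8. The construction of each alternative, in lengths or in where shared reads are placed, sets these moves; no other cause was tested. Each pup alone stays within 1 SD by arithmetic when n = 2, and the ratio between the pups needs both. The lowest count of a measured gene was 477, for mt-Nd4l in pup 1, and the limits were not ranked against each other.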
